A study of Canis lupus familiaris with 2 samples.

Results

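The TRAIL, FAS and caspase death pathway was followed through 8 genes, namely the ligand gene TNFSF10, the receptor genes FAS and TNFRSF1A, the adaptor gene FADD, the initiator caspase genes CASP8 and CASP9, and the inhibitor genes CFLAR and XIAP. They were chosen by symbol among the 15115 genes to which the array annotation gives probe sets with exactly 1 symbol. The 8 genes had 17 probe sets, a probe set being the group of oligonucleotides that gives 1 signal for a transcript. Every probe set is described here.

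The samples were J3T-1 and J3T-2, subclones derived from 1 parental canine glioma cell line. The submitters describe the subclones as similar in genetic background and different in invasion and angiogenesis. Both were grown untreated in DMEM with fetal bovine serum, penicillin and streptomycin, and total RNA from each was hybridized to 1 Affymetrix canine array. The comparison asks which transcripts differ between the subclones in culture. A single array per subclone allows no test, no p-value and no replicate SD, and each difference below compares 2 arrays. The number of arrays limits the precision.

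TRAIL, the product of TNFSF10, and the FAS ligand bind death receptors at the cell surface. The bound receptors gather the adaptor FADD, which recruits caspase 8 into a complex where it activates itself. CFLAR encodes FLIP, a caspase-8 relative without protease activity that enters the same complex and restrains it. Caspase 9 is the initiator of the mitochondrial branch and is activated on the APAF1 scaffold by cytochrome c, and XIAP binds and blocks caspases, caspase 9 among them. Gliomas are known to differ widely in how they respond to TRAIL, and the amount of caspase 8 is among the features studied for this.

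Values are MAS5 signals on a linear scale, in arbitrary units. Signals under the array median of non-control probe sets (19.0 in J3T-1, 22.0 in J3T-2) were set to that median, called the floor, before a ratio was taken. A fold against a floored signal is a lower bound, written as such. All log2 ratios are J3T-2 over J3T-1, so a negative value is higher in J3T-1. Over the 9433 genes above the floor on at least 1 array, called measured, 687 (7.28%) differed by at least 2-fold with the higher signal in J3T-2, and 329 (3.49%) with the higher signal in J3T-1. Such genes are called past 2-fold on the side of the subclone with the higher signal. The median log2 ratio, over the 9228 of them with a usable ratio, was 0.17 towards J3T-2. With ratios centred on the median probe set the counts were 456 (4.83%) and 452 (4.79%). A ratio of a single gene has to be read against that shift.

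Of the 8 genes, 7 were measured and FADD was not. TNFSF10 and CASP8 were past 2-fold on the J3T-1 side, 2 of the 7 measured, beside 3.49% of all measured genes. By the probe set that represents each gene, 0 of the 7 were past 2-fold on the J3T-2 side, beside 7.28% of all measured genes. A gene is represented by its brightest probe set, taken as the mean log2 signal of both arrays. The median log2 ratio of the 6 genes with a ratio was -0.027, against 0.17 for all measured genes. Of the 17 probe sets, 11 exceeded the floor on both arrays, 5 on neither and 1 (FAS) on the J3T-1 array alone. Of the first 11, the J3T-2 signal exceeded the J3T-1 signal for 6 and fell below it for 5. Of all 15210 probe sets with 1 symbol and above both floors, 10085 leaned towards J3T-2 and 5109 towards J3T-1.

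**Figure D1:**
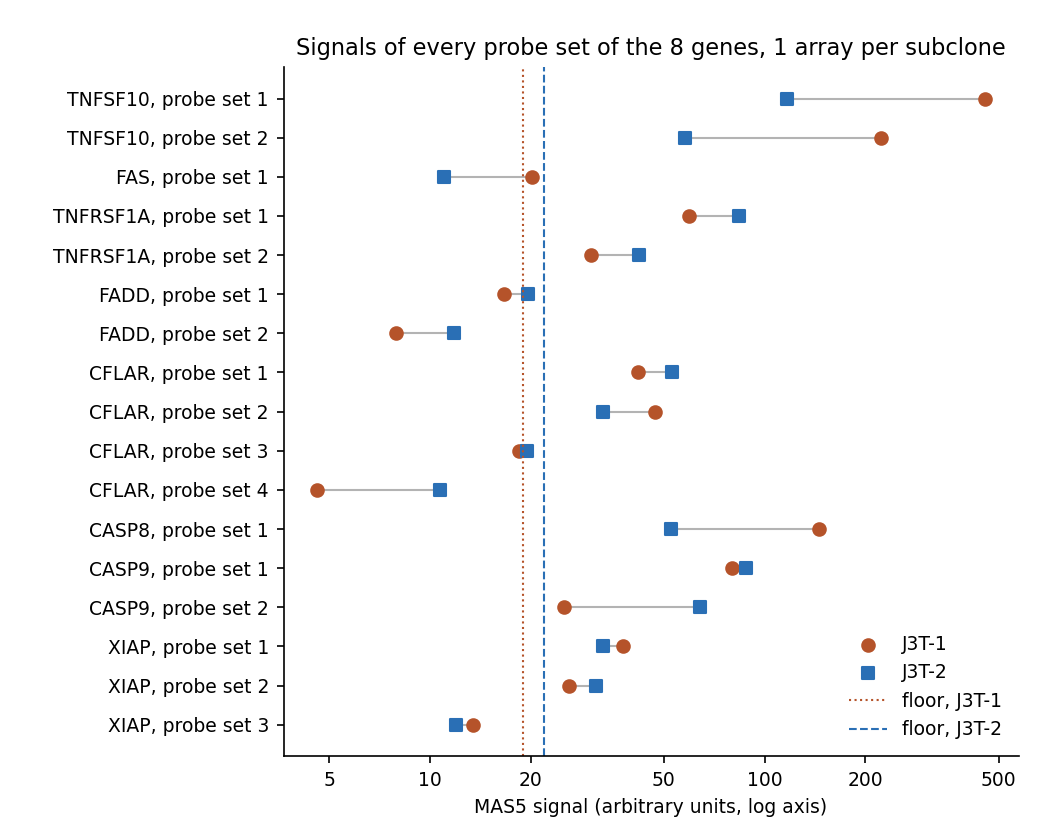
MAS5 signal (x axis, log scale, arbitrary units) of each of the 17 probe sets of the 8 genes (y axis) in J3T-1 (circles) and J3T-2 (squares), with the floor of each array as a vertical line. Each point is 1 array, with no error bar, and the probe sets of a gene are numbered from the brightest. Both TNFSF10 probe sets and the CASP8 probe set lie far to the right in J3T-1, both FADD probe sets lie below the floors, and the CFLAR and XIAP probe sets above the floors point both ways.

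TNFSF10, the TRAIL ligand, was the member with the largest difference. Its brighter probe set read 455.4 in J3T-1 against 116.6 in J3T-2, and the dimmer one 222.3 against 57.8. Both were well above the floor on both arrays. The log2 ratios were -1.97 and -1.94, or 3.91-fold and 3.85-fold higher in J3T-1. The SD of the log2 ratio between these probe sets was 0.016, against a root mean square SD of 0.261 over the 4580 genes for which several probe sets exceeded both floors. This SD is technical and holds no spread between cultures. A lower ratio than that of TNFSF10 was found for 1.0% of the measured genes with a ratio. The difference stayed over 2-fold under all 8 processing alternatives, with log2 ratios from -2.15 to -1.83.

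TRAIL is made by activated lymphocytes and macrophages as well as by other cells, so markers of those cells were read on the same arrays. In bulk RNA, fewer cells of a type and less RNA per cell cannot be told apart. For T and NK lymphocytes, 15 probe sets of 8 marker genes were present and 0 were above the floor on both arrays. Their signals summed to 82.3 in J3T-1 against 58.3 in J3T-2, and the highest single signals were 21.4 and 25.2. By the representing probe sets CD3D read 1.6 and 1.0 and GZMB 0.4 and 0.8. CD2 (21.4 and 7.5) and CD3E (20.1 and 16.3) exceeded the floor of J3T-1 alone, by little. NKG7 (12.9 and 25.2) exceeded that of J3T-2 alone. For microglia and macrophages, 1 of 14 probe sets of 7 genes was above the floor on both arrays, the sums were 85.3 and 123.9, and PTPRC, the pan-leukocyte marker, read 5.6 and 7.5. Of 13 endothelial probe sets, 2 were above the floor on both arrays, with sums of 100.8 and 98.4. Of the 8 glioma and astrocyte markers present, 5 were measured. VIM (8129.9 and 7960.8), SOX2 (411.1 and 1191.0), SLC1A3 (771.3 and 2396.3) and NES (55.3 and 69.3) exceeded both floors, FABP7 (14.8 and 82.1) exceeded that of J3T-2, and GFAP, S100B and AQP4 were under the floor on both arrays. SOX2, SLC1A3 and FABP7, 3 of the 5 measured, were past 2-fold on the J3T-2 side (7.28% of all measured genes), and the part of this in the death pathway differences was not tested.

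The other death ligands gave little to compare. By the representing probe sets FASLG, the ligand of FAS, read 1.0 and 0.6, TNF 15.3 and 11.2, and LTA 0.9 and 5.1, all below the floor on both arrays, as were the dimmer probe sets of FASLG and TNF. TNFSF15 was also below it, and TNFSF12 is not analysed here. Of the 2 measured ligand genes, TNFSF10 was at least 2-fold apart and LTB, which encodes lymphotoxin beta, was not, with 61.0 in J3T-1 against 53.8 in J3T-2 and a log2 ratio of -0.18.

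FAS, the receptor of the FAS ligand and a gene that p53 can induce, had 1 probe set, with 20.2 in J3T-1 against 11.0 in J3T-2. The first lies just over the floor of its array and the second under it. Because 20.2 is also under the floor of the J3T-2 array, no fold is given. Both probe sets of TNFRSF1A, the main TNF receptor, were higher in J3T-2, at 59.3 against 83.9 and 30.2 against 42.0. The log2 ratios were 0.50 and 0.48, or 1.42-fold and 1.39-fold, with an SD of 0.018 between them. The log2 ratio of TNFRSF1A ranged from 0.29 to 0.50 over the 7 alternatives that gave one.

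In the list of death receptors and decoys, 9 of 14 genes were on the array with 1 symbol and 5 were measured. Of the 4 with a ratio, which leaves out FAS, 0 were at least 2-fold apart in either direction. TNFRSF12A, the receptor for TWEAK, had 333.8 and 207.3 (1.61-fold higher in J3T-1), and TNFRSF21, known as death receptor 6, 78.2 and 51.6 (1.52-fold higher in J3T-1). TNFRSF1B, the second TNF receptor, read 47.0 and 43.7. The median log2 ratio of the 4 receptor genes with a ratio was -0.35. TRAIL receptor genes of the TNFRSF10 group are not analysed here, so nothing can be said on whether the TRAIL receptors differed.

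FADD, the adaptor that links FAS and TRAIL receptors to caspase 8, was below the floor by both probe sets, with 16.7 and 19.6 by one and 7.9 and 11.8 by the other. No ratio is given for it. Of 12 adaptors and receptor-complex kinases on the array, 10 were measured and 0 were at least 2-fold apart by the representing probe set. TRADD, the adaptor of TNFRSF1A, had 264.1 and 246.6, and RIPK1, the kinase of the same complex, 200.8 and 203.7. The ubiquitin ligase gene TRAF2 had the largest ratio of the list, with 86.0 and 150.6 (1.75-fold higher in J3T-2), while a dimmer probe set read 31.1 and 74.9 (2.41-fold). RIPK2 was 1.34-fold higher in J3T-2, or 1.75-fold by the dimmer of its probe sets. RIPK3, the kinase of necroptosis, read 64.2 and 82.6 (1.29-fold). The list had a median log2 ratio of 0.069.

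CASP8, the initiator caspase of the receptor branch, was higher in J3T-1. Its only probe set read 145.6 in J3T-1 against 52.6 in J3T-2, both above the floor, with a log2 ratio of -1.47 (2.77-fold). Of the measured genes with a ratio, 1.8% had a lower one. A single probe set leaves no check from a second one, and its _s_at suffix marks a set whose oligonucleotides can match more than 1 transcript. The mean signal of CASP8 lies in the range of 50 to 100. Among 718 genes whose brightest probe set had a mean signal in that range, the root mean square SD between probe sets was 0.342 in log2 ratio. Among 1039 genes at 100 to 200 it was 0.278. With the floor at the 75th percentile of each array the J3T-2 signal of CASP8 falls under the floor and the difference shrinks to a bound of at least 1.21-fold.

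CFLAR, the FLIP gene, gave no agreed direction. The 2 probe sets that exceeded both floors read 41.9 in J3T-1 against 52.9 in J3T-2 and 46.9 against 32.9. The log2 ratios were 0.34 and -0.51, with an SD of 0.599 between them. The remaining 2 probe sets, at 18.5 and 19.5 and at 4.6 and 10.7, were below the floor on both arrays. The gap between CASP8 and CFLAR in log2 ratio was -1.81 by the first CFLAR probe set and -0.96 by the second, so CASP8 was shifted further towards J3T-1 than CFLAR by both.

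CFLAR, CASP10 and CASP8 follow one another in that order in the canine assembly UU_Cfam_GSD_1.0, with no other protein-coding gene between them. The array values name no genome build, so only gene order was used. CASP10, a close relative of CASP8, read 25.4 and 36.3 by its representing probe set (1.43-fold higher in J3T-2). Its other probe set read 14.9 in J3T-1, under the floor, against 28.9, a difference of at least 1.52-fold in the same direction. Of the 8 measured genes nearest to CASP8, 4 on each side, 0 were at least 2-fold apart and 7 were higher in J3T-2, or 6 of 8 once the arrays were rescaled in any of 3 ways. Their median log2 ratio was 0.50, against -1.47 for CASP8 itself. The 7 higher in J3T-2 included CFLAR, whose probe sets disagreed, and FZD7, with a lower bound only. Over the whole arrays, 10085 of 15210 probe sets with 1 symbol above both floors were also higher in J3T-2. TRAK2 and STRADB, the next measured genes on the other side of CASP8, were 1.65-fold and 1.40-fold higher in J3T-2.

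The other member with a large difference, TNFSF10, had 7 measured genes around it, of which 0 were at least 2-fold apart. Their median log2 ratio was -0.066. The glucose transporter gene SLC2A2 came closest, reading 43.3 in J3T-1 against 12.0 in J3T-2, which is under the floor, a difference of at least 1.97-fold. SLC2A2 passed 2-fold under the 3 rescalings, with -1.16 in log2 on centring. The nearest measured genes on either side, FNDC3B and NCEH1, had log2 ratios of -0.42 and 0.21. Next to FAS, the smooth muscle actin gene ACTA2 differed in the other direction, from 22.8 in J3T-1 to 140.7 in J3T-2 (6.17-fold). The J3T-1 signal of ACTA2 is close to the floor of 19.0. Of the 4 measured genes read near FAS, 1 was at least 2-fold apart. The log2 ratios of the others, ATAD1, RNLS and STAMBPL1, were 0.0031, 0.12 and -0.48.

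**Figure D2:**
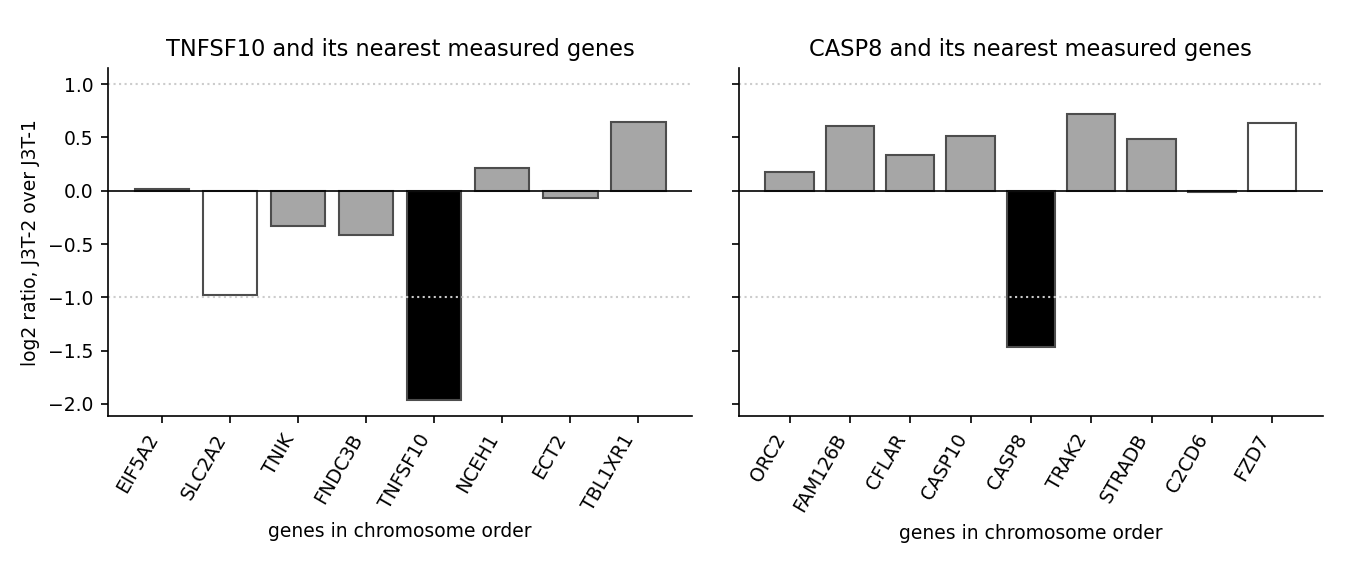
Log2 ratio of MAS5 signals, J3T-2 over J3T-1 (y axis), for TNFSF10 (left, black bar) and CASP8 (right, black bar) and the measured genes nearest to each in chromosome order (grey bars; open bars are lower bounds). Dotted lines mark 2-fold, every bar is 1 comparison of 2 arrays, and the black bars at -1.97 and -1.47 are the only ones past a dotted line. On rescaled arrays SLC2A2 also passes it, and EIF5A2 and ORC2, at 0.016 and 0.18 here, change sign.

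CASP9, the initiator caspase of the mitochondrial branch, depended on the probe set. The brighter one read 79.8 in J3T-1 against 88.1 in J3T-2, a log2 ratio of 0.14 that turned to between -0.064 and -0.037 under the 3 rescalings. The dimmer one read 25.2 and 64.1, a log2 ratio of 1.35 (2.54-fold higher in J3T-2). Its J3T-1 signal is close to the floor of 19.0. The SD between the CASP9 probe sets was 0.851, the widest of the 5 members with more than 1 probe set over both floors. By the median over its probe sets CASP9 was 1.68-fold higher in J3T-2.

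XIAP, the caspase inhibitor, also had probe sets on both sides of 0. The representing one read 37.7 and 32.9 (log2 ratio -0.20) and the next 26.0 and 31.4 (0.27), with an SD of 0.331. The third, at 13.5 and 12.0, was below the floor on both arrays. All are dim, and among 261 genes whose brightest probe set had a mean signal under 50 the SD between probe sets was 0.376. The XIAP difference lies within that technical scatter.

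**Figure D3:**
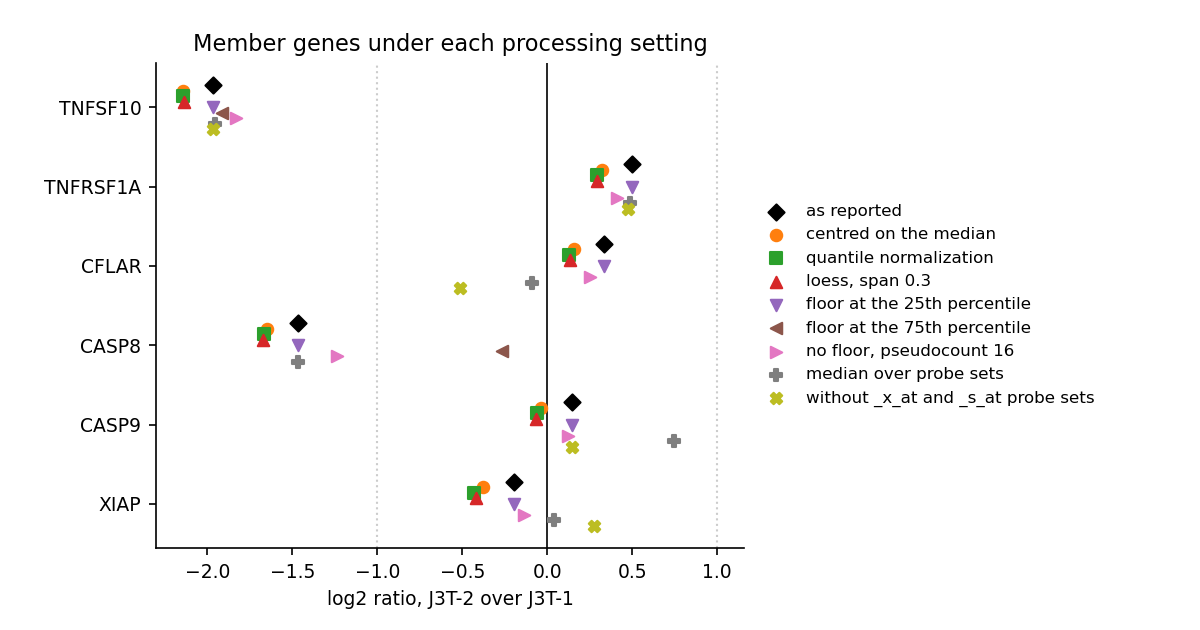
Log2 ratio, J3T-2 over J3T-1 (x axis), of the 6 member genes with a ratio (y axis). Black diamonds are values as reported, and other symbols, offset vertically, are those of the 8 processing alternatives that gave a value. Dotted lines mark 2-fold and no error bars can be drawn with 1 array per subclone. TNFSF10 stays between -2.15 and -1.83. CASP8 stays on the J3T-1 side and, of the 7 alternatives with a value, comes under 2-fold only with the floor at the 75th percentile. Dropping _x_at and _s_at probe sets leaves no value for CASP8. TNFRSF1A stays between 0.29 and 0.50, and CFLAR, CASP9 and XIAP cross 0. TNFRSF1A, CFLAR, CASP9 and XIAP have no value with the floor at the 75th percentile.

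Among the other caspases, CASP12 had the largest difference. CASP12, an inflammatory-type caspase linked to the endoplasmic reticulum, read 140.3 in J3T-1 against 9.0 in J3T-2, a difference of at least 6.38-fold. Its other 2 probe sets read 38.7 against 0.4 and 24.3 against 0.3, and all 3 were under the floor in J3T-2. Against the floor these 2 give bounds of only 1.76-fold and 1.1-fold. CASP12 is therefore past 2-fold by its brightest probe set and not by the median over probe sets. The neighbouring gene CASP4 was below the floor on both arrays, with 4.9 and 9.6. CASP2 read 276.5 and 314.3 (log2 ratio 0.18, near 0 once the arrays were rescaled) and CASP6, an executioner caspase, 489.9 and 472.0. Of 8 caspase genes on the array 7 were measured, with 2, CASP8 and CASP12, past 2-fold on the J3T-1 side (3.49% of all measured genes) and 0 on the J3T-2 side (7.28%). CASP14, at 20.2 and 4.3, was measured but had no ratio.

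Downstream of the initiators, all 11 genes of the apoptosome and mitochondrial release list were measured and 0 were at least 2-fold apart in either direction. CYCS, which encodes cytochrome c, read 4433.7 in J3T-1 against 2502.9 in J3T-2 by one probe set and 3407.4 against 1840.4 by the other (1.77-fold and 1.85-fold higher in J3T-1). With ratios centred, CYCS just passed 2-fold (-1.0 in log2). AIFM1, a mitochondrial flavoprotein that can take part in caspase-independent death, went the other way in both probe sets (1.70-fold and 1.69-fold higher in J3T-2). BAK1, a pore-forming BCL2-family protein, read 40.1 and 76.3 by one probe set (1.90-fold higher in J3T-2) and 36.6 and 29.5 by the other. BID, which caspase 8 cleaves to link the receptor and mitochondrial branches, had 518.5 and 531.8. APAF1, the scaffold of caspase 9, had 116.6 and 144.2. The list median was 0.085 in log2.

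The list named inhibitors of death receptors and caspases split. It also holds regulators that are not such inhibitors, CYLD and XAF1 among them. Of its 13 genes on the array 10 were measured. Past 2-fold were 1 on the J3T-1 side (3.49% of all measured genes) and 1 on the J3T-2 side (7.28%). The median log2 ratio of the list, CYLD included, was -0.20. BIRC3, which encodes the ubiquitin ligase cIAP2 of the TNF receptor complex, read 399.0 in J3T-1 against 117.3 in J3T-2 (3.40-fold), and 269.5 against 86.3 (3.12-fold) by a further probe set. Its neighbour and relative BIRC2 read 694.0 and 582.2 (log2 ratio -0.25). BIRC5, which encodes survivin, also a mitotic protein, was higher in J3T-2 by both probe sets, at 532.2 against 1123.4 (2.11-fold) and 342.4 against 985.5 (2.88-fold). The first of these fell under 2-fold once the arrays were rescaled (0.90 in log2 on centring). CYLD, a deubiquitinase that limits NF-kB signalling, was 1.85-fold higher in J3T-1 and passed 2-fold on centring (-1.07 in log2). PEA15, which binds FADD and caspase 8, was 1.43-fold higher in J3T-1. USP2 read 18.1 and 24.2, the second close to the J3T-2 floor of 22.0. As reported it was at least 1.27-fold higher in J3T-2 (0.35 in log2). Under the 3 rescalings this bound fell to between 0.12 and 0.17 in log2.

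**Figure D4:**
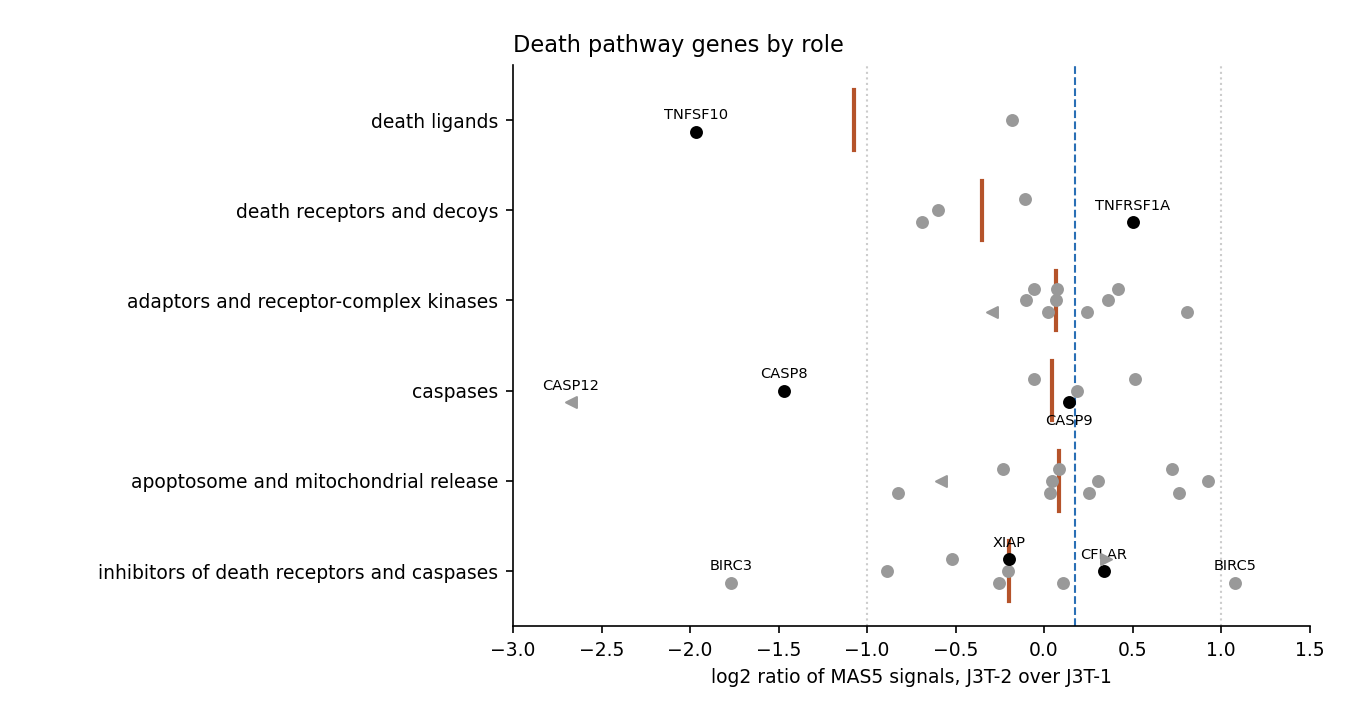
Log2 ratio of MAS5 signals, J3T-2 over J3T-1 (x axis), for each gene with a ratio in the 6 death pathway lists (y axis). Black points are members, grey points other genes, triangles lower bounds, short vertical bars list medians, the dashed line the median of all measured genes (0.17) and dotted lines 2-fold; points are offset vertically to separate them. TNFSF10, CASP8, CASP12 and BIRC3 lie past 2-fold on the J3T-1 side and BIRC5, as long as the arrays are not rescaled, on the J3T-2 side. Genes between the dashed line and 0, CASP9 among them, change side once the arrays are centred.

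Over the 6 lists together, 45 of 59 genes on the array were measured. Past 2-fold on the J3T-1 side were 4, namely TNFSF10, CASP8, CASP12 and BIRC3, beside 3.49% of all measured genes. On the J3T-2 side 1 was past 2-fold, BIRC5, beside 7.28% of all measured genes. The other 40 were not past 2-fold by this rule, and 43 of the 45 had a ratio. FAS and CASP14 had none. PIDD1, DFFB and USP2 had a lower bound only, so their differences may be larger. Without the 8 members the lists held 38 measured genes, with 2 and 1 past 2-fold, and a median log2 ratio of 0.036 over 37 genes, against 0.17 for all measured genes.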

How the data were processed

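The authors deposited 1 MAS5 signal intensity per probe set and array on a linear scale, MAS5 being named in the submitters' processing notes. The MAS5 version, scaling target and detection calls were not given in the sources used here. Per the labels' protocols, RNA was purified on columns and labelled with a 3' IVT kit. Of 43035 probe sets, 111 controls were left out, and 29254 had 1 symbol in the array annotation. Gene IDs of all 8 members were found in RefSeq (UU_Cfam_GSD_1.0), with 0 symbols changed. Each gene was read from its brightest probe set by mean log2 signal, the floor was each array's median, and the size rule was 2-fold. Where the floored array would have come out higher, no ratio was taken and the gene was left out of medians. The 8 alternatives were 3 rescalings (centring, quantile normalization, and loess of span 0.3), a floor at the 25th or the 75th percentile or none (with 16 added to every signal), a median taken across the probe sets of each gene, and a suffix filter that drops _x_at and _s_at probe sets.

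All members were named with every probe set. From each pathway list, the genes at least 2-fold apart and up to 3 further genes by size of the log2 ratio were named. The other genes named were chosen for their role or position after values were seen. Members and lists were chosen with earlier results of these data known. Simulated data with planted differences were used to test the counting. Python 3.11.15 was used with matplotlib 3.10.9, statsmodels 0.14.6, pandas 2.3.3 and numpy 2.4.6.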

Additional observations from a re-analysis of the deposited data

How the results depend on the processing

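No paired analysis was possible because each subclone has 1 array. Log2 ratios moved by more than the technical SD between probe sets in 5 cases. CASP8 went to -0.27 under the 75th-percentile floor, CFLAR to -0.088 and CASP9 to 0.74 by the median over probe sets, and CFLAR to -0.51 and XIAP to 0.27 without _x_at and _s_at probe sets, which removes the only CASP8 probe set. Members past 2-fold on the J3T-1 side numbered 1 in place of 2 under the 75th-percentile floor and 1 under this suffix filter. The member median was -0.21 on centring, -0.24 with loess, -1.09 under the 75th-percentile floor (2 genes) and 0.14 under the suffix filter.

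List medians followed the scaling and the floor. On centring they were -0.53 (receptors), -0.11 (adaptors), -0.13 (caspases), -0.095 (apoptosome) and -0.38 (inhibitors). Quantile normalization gave -1.27 (ligands), -0.12 (adaptors), -0.092 (caspases), -0.12 (apoptosome) and -0.41 (inhibitors). Loess gave -1.26 (ligands), -0.56 (receptors), -0.12 (adaptors), -0.14 (caspases), -0.12 (apoptosome) and -0.40 (inhibitors). Under the 25th-percentile floor ligands were at -0.18 and adaptors at 0.15. Under the 75th-percentile floor ligands were at -1.91, receptors at -0.69 and caspases at -0.13. With no floor ligands were at -0.088 and receptors at 0.10. The median over probe sets put inhibitors at -0.077, and the suffix filter put receptors at -0.10.

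Pathway genes past 2-fold on the J3T-2 side numbered 0 under each of the 3 rescalings, 2 under the 25th-percentile floor and 2 by the median over probe sets, in place of 1. Those on the J3T-1 side numbered 2 in place of 4 under the 75th-percentile floor, over 24 genes in place of 45, 6 on centring and under the 25th-percentile floor, 5 under quantile normalization, loess and no floor, and 3 by the median over probe sets and under the suffix filter. Of all measured genes, 456, 438 and 438 were past 2-fold on the J3T-2 side under centring, quantile normalization and loess, in place of 687. The 25th-percentile floor gave 1511 on the J3T-2 side and 869 on the J3T-1 side, and the 75th-percentile floor 264 and 121. The cause of these shifts was not tested. The other 98 recomputed values stayed within a tolerance, which was 1.5 times for counts, the technical SD between probe sets (0.261) for log2 ratios, and that SD over the square root of the number of genes for medians.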
